A study of Mus musculus with 9 samples.

Results

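Cation-chloride cotransporters of the SLC12 family set the chloride concentration inside cells, and 4 of them, Slc12a2, Slc12a4, Slc12a5 and Slc12a7, were followed by gene symbol through the read counts of dorsal root ganglia (DRG). They are 4 of the 9 SLC12 genes in a table of 55247 genes, and all 4 were among the 13200 genes tested, those that reached 100 counts in any library. The members were chosen by their measured counts, since Slc12a5 had fewer in both genotypes with Isl1Cre than in WT, so levels against WT describe that choice and carry no test. Only the comparison of the 2 Isl1Cre genotypes with each other was not used to choose the genes and was tested.

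RNA was sequenced from DRG of E18.5 mouse embryos in 9 libraries, 3 for each of 3 genotypes. WT embryos had neither modified allele. Isl1Cre/+ embryos had the Cre recombinase knocked into 1 copy of Isl1, a gene active in postmitotic sensory neurons and in some other neurons such as motor neurons, so that 1 functional copy of Isl1 was left. Isl1Cre/+::Meis2LoxP/LoxP embryos, called mutant, had the same Isl1 allele and, in addition, LoxP sites around exon 8 of both copies of Meis2, a homeodomain transcription factor, so both Isl1Cre genotypes share the reduced Isl1 dose. Recombination is limited to the cells that express Isl1, while the RNA came from whole ganglia.

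Meis2 RNA was 102 ± 7.21 cpm (counts scaled to a common library size, mean ± SD, n = 3 libraries here and below) in WT, 95.3 ± 6.28 in Isl1Cre/+ and 40.7 ± 0.255 in mutant libraries, in the direction of the labels. Isl1 stood at 260, 185 and 187 cpm in the same order. Library totals were 23854607 to 29103444 counts. The 10 markers of sensory neurons summed to between 13000 and 23600 cpm in every library, as the label of the tissue requires, and Nefl, a neurofilament, was the most abundant of them. WT library 1 stood apart: it had the largest sensory neuron sum, 23600 cpm against 13500 and 14100 in the other WT libraries, and its differences from those libraries had a chi-square per degree of freedom of 108 and 129, where counting alone gives 1, against 13.8 between the other 2. Mutant libraries also differed from each other, at 39.2 to 61.7, more than Isl1Cre/+ libraries did, at 12.6 to 20.5. The labels give no batch, litter or pool size, so the spread between libraries of a genotype may be partly technical.

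Cotransporters of this family move chloride together with cations. The importer NKCC1, encoded by Slc12a2, uses the sodium gradient to bring sodium, potassium and chloride into the cell, and the potassium-chloride exporters KCC1 (Slc12a4), KCC2 (Slc12a5) and KCC4 (Slc12a7) use the potassium gradient to carry chloride out. Where import prevails, opening of GABA(A) receptors lets chloride leave and depolarizes the cell, and where KCC2 prevails, as in mature neurons of the brain and spinal cord, it inhibits. Primary sensory neurons are known for keeping NKCC1 and being depolarized by GABA, whereas KCC2 is known as the exporter of central neurons.

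The Slc12a5 gene (ENSMUSG00000017740.17) lies on the forward strand of mm10 (GRCm38) at chr2:164960802-164999731, with 10 annotated transcripts and no exon shared with another gene. Transcripts begin at 2 starts that give proteins with different amino termini, and RefSeq lists a promoter for each. These 2 sequences are shown because Slc12a5 is the member on which the comparisons turn, and because factors named for its promoter, USF1, USF2 and EGR4, are measured below. Each line gives the 250 bases before a start, 5′ to 3′ on the forward strand, from RefSeq on GRCm38, and capitals mark the E-box CACGTG, a sequence that USF factors bind.

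Slc12a5 first start, chr2:164960596-164960845: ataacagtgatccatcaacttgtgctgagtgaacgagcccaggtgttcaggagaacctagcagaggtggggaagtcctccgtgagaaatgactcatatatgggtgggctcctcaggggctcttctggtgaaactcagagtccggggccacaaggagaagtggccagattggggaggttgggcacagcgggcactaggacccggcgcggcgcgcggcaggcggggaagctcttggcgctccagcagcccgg
Slc12a5 second start, chr2:164967738-164967987: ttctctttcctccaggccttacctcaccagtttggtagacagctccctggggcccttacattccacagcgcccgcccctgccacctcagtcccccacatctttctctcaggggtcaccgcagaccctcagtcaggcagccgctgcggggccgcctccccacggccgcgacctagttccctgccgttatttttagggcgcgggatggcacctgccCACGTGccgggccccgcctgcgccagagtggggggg

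The E-box begins 36 bases before the second start and does not occur at the first. Windows of 250 bases before to 50 bases after a start were searched on both strands, and CACGTG, which is its own reverse complement, was found in 7.15% of the 32851 RefSeq promoters, so the match is a description of these letters and not a measured site. The letters GCGNGGGCG, a core of EGR binding, were in neither window and in 5.55% of all promoters. The table had promoters of 3 of the 4 members: both windows of Slc12a7 held CACGTG and the window of Slc12a4 did not. Counts per gene do not separate the 2 starts of Slc12a5.

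The importer was by far the most abundant of these RNAs. Slc12a2 (ENSMUSG00000024597.11, chromosome 18, 57878678 to 57946821, forward strand) was at 122, 156 and 163 cpm in the WT libraries, at 160, 157 and 170 cpm in the Isl1Cre/+ libraries and at 159, 179 and 149 cpm in the mutant libraries. WT library 1 was the lowest of the 9 and mutant library 2 the highest, and the genotypes overlapped. Its means were 147 ± 21.8, 162 ± 6.43 and 163 ± 15.1 cpm. These values came from 3265 to 4827 counts per library, so the counting error was under 2% of each value.

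Among the exporters, Slc12a7 (ENSMUSG00000017756.9, chr13:73733094-73816754, forward strand) was at 40.1, 32.5 and 33.1 cpm in WT, 40.6, 34.4 and 31.2 cpm in Isl1Cre/+ and 32.5, 43.8 and 35.3 cpm in mutant libraries. KCC4, its product, is known from epithelia as well as neural tissue. The means were 35.3 ± 4.25, 35.4 ± 4.8 and 37.2 ± 5.86 cpm, and the genotypes overlapped throughout. The library with the most Slc12a7 also had the largest sum of 7 fibroblast markers in mutant (library 2, 4880 cpm) and in Isl1Cre/+ (library 1, 4510 cpm) but not in WT, where library 1 had 3770 cpm against 4200 in library 3. This was not particular to fibroblasts. Macrophage markers had their largest sum in that library in every genotype (50.3 cpm in WT, 46.2 in Isl1Cre/+ and 66.2 in mutant). So did markers of central glia (67.6, 64.3 and 53.7 cpm). The part of these cells in the level was not tested.

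Slc12a4 (ENSMUSG00000017765.17, chr8:105943590-105966097, reverse strand) encodes KCC1, a widely expressed exporter linked to cell volume. It was at 20.3, 16.0 and 17.2 cpm in WT, 22.3, 17.8 and 18.4 cpm in Isl1Cre/+ and 14.6, 18.7 and 18.6 cpm in mutant libraries, with means of 17.8 ± 2.18, 19.5 ± 2.45 and 17.3 ± 2.38 cpm. Mutant library 1 was the lowest and Isl1Cre/+ library 1 the highest of the 9, and all genotypes overlapped. Of its exonic bases, 8.44% lie opposite Gm16156, and since the strand setting of the counting is not given in the sources used here, reads of that gene could be included.

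Slc12a5 was the least abundant member, with 66 to 159 counts per library. It was at 5.95, 4.30 and 4.08 cpm in the WT libraries (159, 122 and 118 counts), at 3.69, 3.24 and 2.7 cpm in the Isl1Cre/+ libraries (109, 91 and 77 counts) and at 2.69, 2.49 and 3.72 cpm in the mutant libraries (72, 66 and 91 counts). All 3 WT libraries lay above all 6 libraries with Isl1Cre, by a narrow margin between WT library 3 and mutant library 3, and the 2 Isl1Cre genotypes overlapped each other. At these counts the counting error was 7.93% to 12.3% of a value. Slc12a5 reached 100 counts in 4 libraries, the 3 of WT and 1 of Isl1Cre/+, and thus entered the analysis through the genotypes in which it was higher.

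**Figure D1:**
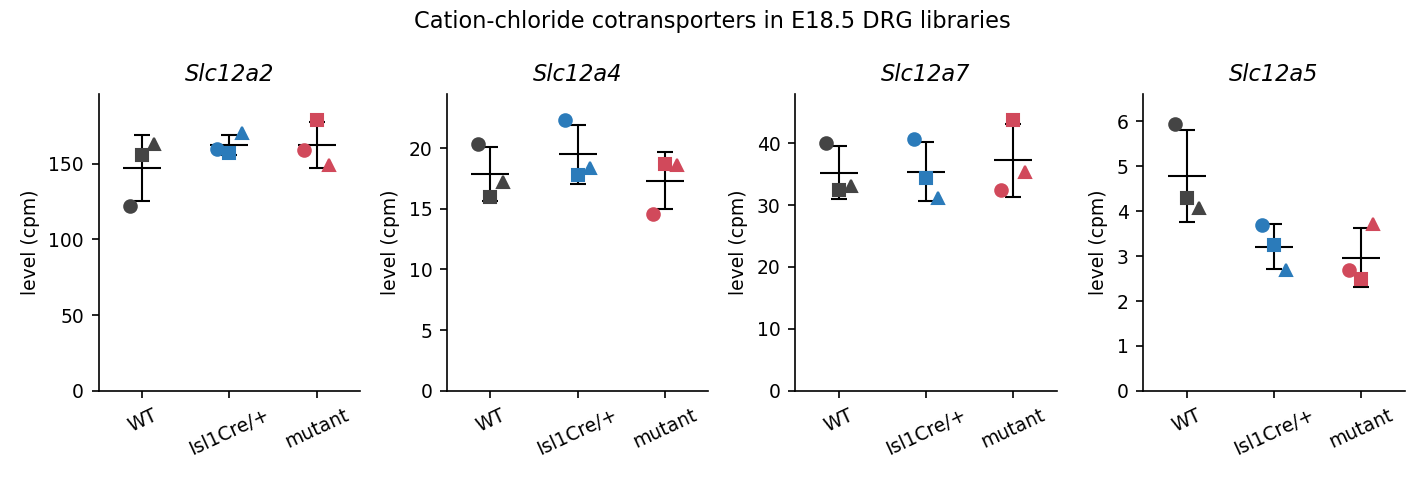
Level of each member in cpm (vertical axes from 0, a scale of its own for each gene) in the 3 libraries of each genotype, with circles for library 1, squares for library 2 and triangles for library 3, and bars for mean ± SD. For Slc12a2, Slc12a4 and Slc12a7 the genotypes overlap, whereas the 3 WT values of Slc12a5 (4.08 to 5.95 cpm) all lie above the 6 others (2.49 to 3.72 cpm).

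As a description of the choice of genes, mean Slc12a5 was 4.78 ± 1.03 cpm in WT, 3.21 ± 0.494 in Isl1Cre/+ and 2.97 ± 0.655 in mutant libraries. The log2 fold change from edgeR was -0.69 (SE 0.242) in mutant and -0.56 (SE 0.201) in Isl1Cre/+ relative to WT, or levels 1.61-fold and 1.47-fold lower. Both comparisons use the same 3 WT libraries. Without WT library 1, the highest of all, the log2 fold changes were -0.50 and -0.39. Of all genes tested, 1.74% had every mutant library below every WT library and 2.66% had every Isl1Cre/+ library below every WT library. In whole ganglia, fewer cells of a type and less RNA per cell cannot be told apart.

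The other 3 members showed no such separation from WT. Relative to WT, the log2 fold change of Slc12a2 was 0.14 (SE 0.131) in mutant and 0.15 (SE 0.125) in Isl1Cre/+, that of Slc12a4 was -0.04 (SE 0.145) and 0.14 (SE 0.121), and that of Slc12a7 was 0.08 (SE 0.14) and 0.02 (SE 0.121). Without WT library 1, the values of Slc12a2 fell to 0.0273 and 0.0135. With single libraries left out, those of Slc12a4 spanned -0.1159 to 0.0668 in mutant, positive without WT library 1 or mutant library 1, and 0.0381 to 0.2184 in Isl1Cre/+, lowest without its library 1. Those of Slc12a7 spanned -0.0344 to 0.1807 and -0.0893 to 0.0968, both of either sign. Over all genes, the median log2 fold change was -0.0094 in mutant and -0.0016 in Isl1Cre/+ relative to WT.

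Markers of spinal interneurons, too, were higher in WT. The list holds 10 genes that define inhibitory and related interneurons of the cord (Pax2, Pax8, Lbx1, Lhx1, Lhx5, Gad1, Gad2, Slc32a1, Slc6a5 and Lmx1b), and none of them reached 100 counts in any library. Their summed level was 8.39, 5.60 and 5.67 cpm in WT, 1.35, 2.10 and 1.90 cpm in Isl1Cre/+ and 2.69, 3.4 and 5.14 cpm in mutant libraries. The mean of 10 of 10 genes was lower than in WT in both Isl1Cre genotypes, with every library below every WT library for 8 of 10 in Isl1Cre/+ and for 3 of 10 in mutant. The shares over all tested genes, which these 10 are not among, were the 2.66% and 1.74% given above.

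Gad1, which makes GABA and was the most abundant of the list, had 67, 61 and 51 counts in WT libraries, 15, 32 and 34 in Isl1Cre/+ libraries and 37, 35 and 42 in mutant libraries. Slc6a5, the glycine transporter of glycinergic neurons, had 23, 31 and 27 counts in WT libraries, 3, 4 and 1 in Isl1Cre/+ libraries and 4, 10 and 16 in mutant libraries. Slc32a1, which loads GABA and glycine into vesicles, had 25, 19 and 13 counts in WT, 2, 5 and 13 in mutant and 0 in each Isl1Cre/+ library, where Lhx5 was also at 0. A count of 0 allows up to 3 counts in a library. Within genotypes the order of the 2 measures was mixed. Mutant library 3 and WT library 1 had the highest of both in their genotype, but Isl1Cre/+ library 1 had the lowest interneuron sum and the highest Slc12a5 of its genotype, and the other two libraries of WT and of mutant also ran in opposite order. Between the Isl1Cre genotypes the order differed: all 3 Isl1Cre/+ libraries had a lower interneuron sum than all 3 mutant libraries, while their Slc12a5 levels overlapped. The part of spinal interneurons in the Slc12a5 level was not tested.

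**Figure D2:**
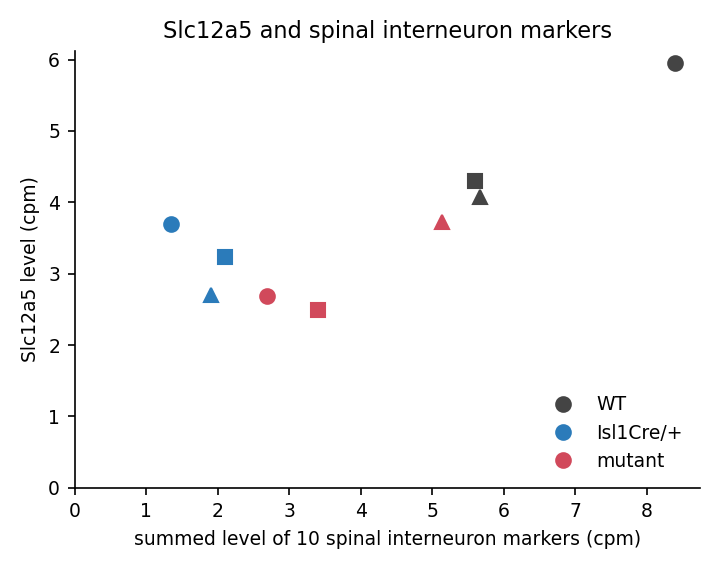
Slc12a5 level (vertical axis, cpm) against the summed level of 10 spinal interneuron markers (horizontal axis, cpm), with 1 point per library, colours for genotypes and circles, squares and triangles for libraries 1, 2 and 3. WT libraries lie at the upper right (5.6 to 8.39 cpm of markers), Isl1Cre/+ libraries at the left (1.35 to 2.1 cpm) and mutant libraries between them or near WT (2.69 to 5.14 cpm).

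Sums of markers of most other cells overlapped between the genotypes. Of 5 motor neuron markers, only Slc5a7, the choline transporter, was tested, at 15.2, 15.2 and 14.4 cpm in WT, Isl1Cre/+ and mutant, and it made up nearly all of their sum. Mnx1, Lhx3, Chat and Slc18a3 had 0 to 14 counts per library, and the means of 5 of 5 in mutant and 4 of 5 in Isl1Cre/+ were below WT. Sums of 6 markers of central glia (46.4 to 67.6, 41.9 to 64.3 and 52.2 to 53.7) and of 8 markers of Schwann and satellite glial cells (1070 to 1250, 1060 to 1290 and 1150 to 1180) overlapped between all genotypes. Of the central glia markers, Olig1, Olig2 and Nkx2-2 had too few counts to be tested. The means of 5 of 6 were below WT in both Isl1Cre genotypes, all but Bcan. In every Isl1Cre/+ library 1 of 6 was lower than in WT, and 0 of 6 in every mutant library, against 2.66% and 1.74% of all tested genes. Sensory neuron sums also overlapped, at 13500 to 23600 cpm in WT, 14600 to 15700 in Isl1Cre/+ and 13000 to 17300 in mutant libraries. The sum of 6 sympathetic markers was 19.4 to 33.3 cpm in WT, above 13.5 to 17.7 in Isl1Cre/+ and overlapping 14.8 to 21.4 in mutant libraries. Th, which makes catecholamines and is also found in some sensory neurons, supplied most of it, at 16.5 to 18.1 cpm per library in WT, 13.4 to 17.6 in Isl1Cre/+ and 13.8 to 14.4 in mutant. Dbh, which makes noradrenaline, had 10, 138 and 42 counts in the WT libraries, against 0, 10 and 0 for Isl1Cre/+ and 10, 13 and 48 for mutant. Slc6a2, which takes noradrenaline up, had 5, 166 and 35 counts in the WT libraries, against 1, 8 and 1 for Isl1Cre/+ and 2, 7 and 58 for mutant. Relative to WT, 4 of 6 sympathetic markers were lower in every Isl1Cre/+ library and 1 of 6 in every mutant library, and the means of 6 of 6 were lower in both. Of all tested genes, 2.66% and 1.74% were lower in every library in these comparisons. Sums of 6 macrophage markers overlapped at 40 to 50.3, 34.1 to 46.2 and 32.9 to 66.2 cpm. Relative to WT, 2 of 6 were lower in every Isl1Cre/+ library and 0 of 6 in every mutant library, against the same shares of all tested genes. The means of 6 of 6 were lower in Isl1Cre/+ and of 1 of 6 in mutant.

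Markers of blood and muscle varied widely between libraries of one genotype. Sums of 6 erythroid markers were 892 to 2120 cpm in WT, 342 to 976 in Isl1Cre/+ and 1200 to 3940 in mutant libraries, and those of 6 skeletal muscle markers 113 to 871, 61 to 158 and 131 to 2040 cpm. In Isl1Cre/+ relative to WT, in which Slc12a5 was also lower, 6 of 6 erythroid and 6 of 6 muscle markers were lower by 1.2-fold or more with an unadjusted p under 0.05 in edgeR, limits that 1.4% of all genes met in either direction. Their median log2 fold changes were -1.34 and -2.06, and 0 of them passed an adjusted p under 0.05. In mutant relative to WT, where Slc12a5 was lower as well, 0 of 6 in each list met these limits, against 0.318% of all genes, and the medians were 0.68 and 0.92. Sums of 6 endothelial markers were 264 to 282 cpm in WT, below 294 to 396 in Isl1Cre/+ and overlapping 219 to 350 in mutant libraries. In Isl1Cre/+ relative to WT, 2 of 6, Kdr and Pecam1, met the same limits as higher (log2 fold change 0.52 and 0.35), and 3 of 6 were higher in every library. Of all genes tested, 0.258% met these limits as higher and 2.96% were higher in every library. The part of these cells in the Slc12a5 level was likewise not tested.

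Mutant against Isl1Cre/+ was the comparison not used for the choice, and it asks what the loss of Meis2 adds to the shared Isl1Cre allele. None of the 4 members met the criterion of the study, a change of 1.2-fold or more together with an unadjusted p under 0.05, which 1.67% of all genes tested met. No member had an unadjusted p under 0.05 with edgeR, DESeq2 or limma voom. In edgeR's two-sided quasi-likelihood test, the log2 fold change of Slc12a5 was -0.12 (SE 0.226), that of Slc12a4 -0.17 (SE 0.133), that of Slc12a7 0.07 (SE 0.137) and that of Slc12a2 0.0031 (SE 0.0786), each with a Benjamini-Hochberg adjusted p = 1.0. The SE of Slc12a5 was the largest of the 4, and its counts were the lowest. Over 12 alternatives, the log2 fold change of Slc12a5 ranged from -0.31 without mutant library 3 to -4.2e-06 without mutant library 2, so single libraries set its size. That of Slc12a4 was nearer to 0, at -0.0649 without mutant library 1 and -0.0653 without Isl1Cre/+ library 1.

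The levels were put in order after division by the exonic length of each gene, the merged exons of all its annotated transcripts. This order depends on the annotation, in which Slc12a7 has 12.669 kb of such exons and Slc12a4 4.279 kb. In cpm, Slc12a7 lay above Slc12a4 (35.3 against 17.8 in WT). Shares and ratios per kb depend on the same lengths. Slc12a2 led in every genotype, at 13.5 cpm per kb of exon in WT and 14.9 in both others, followed by Slc12a4 (4.17, 4.56 and 4.04 in WT, Isl1Cre/+ and mutant), Slc12a7 (2.78, 2.79 and 2.93), Slc12a9 (1.95, 2.06 and 1.9) and Slc12a5 (0.641, 0.431 and 0.399). Slc12a8, Slc12a1 and Slc12a3 came last. Libraries of neighbours in this order overlapped for Slc12a1 and Slc12a3 in every genotype and, in mutant only, for Slc12a4 and Slc12a7 and for Slc12a5 and Slc12a8, and the other neighbours were separate. Slc12a5 was thus the lowest of the 4 members in each genotype, and also below Slc12a9 in every library.

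Of the SLC12 genes outside the set, Slc12a9 was at 9.77 ± 0.427, 10.3 ± 1.5 and 9.52 ± 2.02 cpm in WT, Isl1Cre/+ and mutant, and it did not meet the criterion in any comparison. Slc12a1 and Slc12a3, the kidney cotransporters NKCC2 and NCC, averaged 0.265 to 0.428 and 0.314 to 0.432 cpm in the 3 genotypes, and Slc12a8 at 0.721 to 1.21 cpm, and these 3 had too few counts to be tested.

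**Figure D3:**
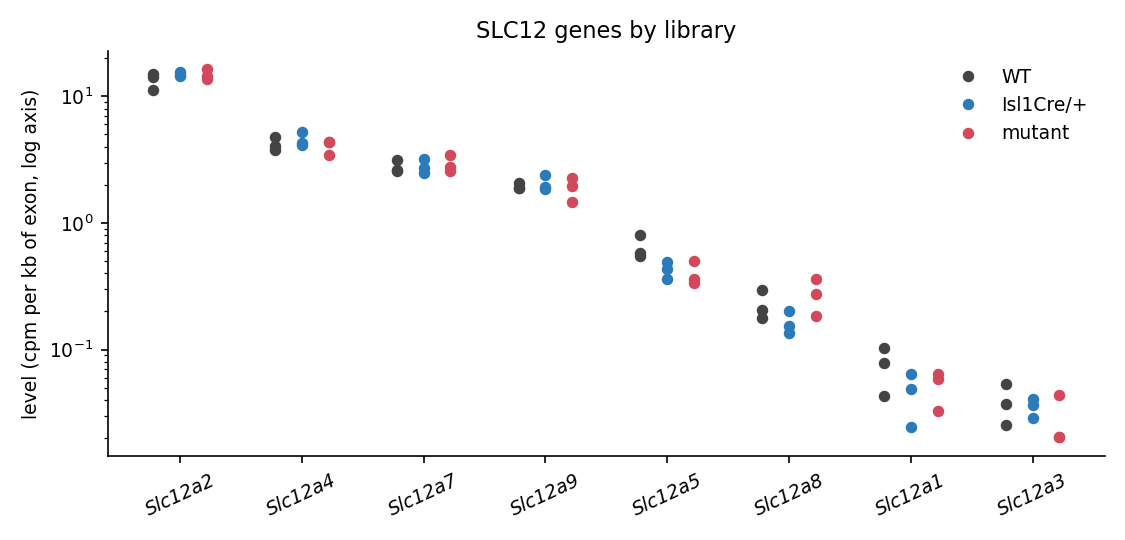
Level of 8 SLC12 genes per kb of exon (vertical log axis, cpm per kb), with 1 point per library and colours for genotypes, ordered from the most to the least abundant. Slc12a2 lies above all others (13.5 cpm per kb on average in WT), and Slc12a5 lies below Slc12a9 and above Slc12a1 and Slc12a3.

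As shares of the 4 members summed per kb, Slc12a2 made up 63.7% ± 6.47 in WT, 65.7% ± 3.24 in Isl1Cre/+ and 66.9% ± 2.79 in mutant libraries. Slc12a4 made up 19.9%, 20.1% and 18.2%, and Slc12a7 13.3%, 12.3% and 13.1%. The share of Slc12a5 was 3.07% ± 0.828, 1.9% ± 0.265 and 1.81% ± 0.494. Importer RNA therefore exceeded the summed RNA of the 3 exporters in every genotype.

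The ratio of KCC2 to NKCC1 RNA is of interest because the balance of these transporters sets the direction of chloride flow through GABA(A) receptors. Per kb of exon, there were 7.14, 4.04 and 3.67 Slc12a5 for every 100 Slc12a2 in the WT libraries, 3.39, 3.02 and 2.34 in the Isl1Cre/+ libraries and 2.48, 2.04 and 3.65 in the mutant libraries. All WT values lay above all others, with WT library 3 (3.67) and mutant library 3 (3.65) almost level. Put the other way, Slc12a2 exceeded Slc12a5 by 21.1-fold in WT, 34.7-fold in Isl1Cre/+ and 37.8-fold in mutant libraries (geometric means).

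Relative to WT, the log2 ratio differed by -0.84 (SE 0.388) in mutant and by -0.72 (SE 0.339) in Isl1Cre/+, again as a description. WT library 1, with the highest Slc12a5 and the lowest Slc12a2, had a large part in this: without it the differences were -0.54 and -0.42. Mutant and Isl1Cre/+ differed by -0.12 (SE 0.292), with an exact two-sided permutation p of 0.8, where 0.1 is the smallest p that 3 libraries against 3 allow. A ratio of RNA levels is not a ratio of transporter activity, which also depends on phosphorylation and on the amount at the membrane.

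**Figure D4:**
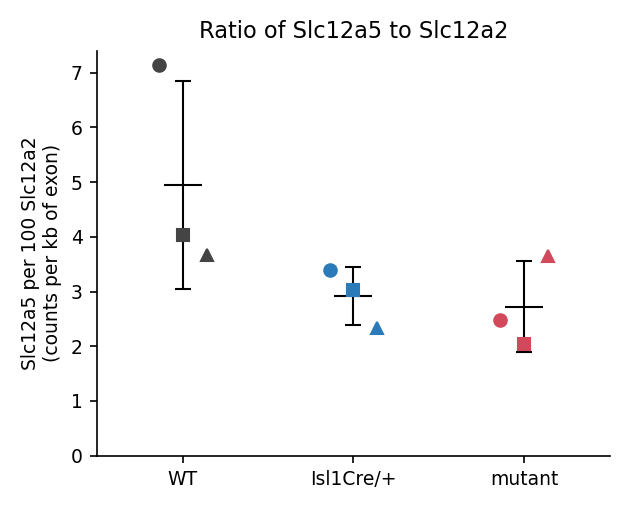
Slc12a5 per 100 Slc12a2, each as counts per kb of exon (vertical axis from 0), in the 3 libraries of each genotype, with circles, squares and triangles for libraries 1, 2 and 3 and bars for mean ± SD. WT libraries lie at 3.67 to 7.14, Isl1Cre/+ at 2.34 to 3.39 and mutant at 2.04 to 3.65, and WT library 1 is far above the rest.

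The more abundant exporters dominated the summed ratio. Slc12a4, Slc12a5 and Slc12a7 together amounted to 58.0 ± 17.0 per 100 Slc12a2 in WT, 52.5 ± 7.64 in Isl1Cre/+ and 49.7 ± 6.23 in mutant libraries, and the genotypes overlapped (exact permutation p = 0.6 for mutant against Isl1Cre/+, two-sided). Slc12a7 was at 21.3, 18.9 and 19.7 and Slc12a4 at 31.8, 30.7 and 27.3 per 100 Slc12a2, with overlap in every comparison.

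Across the 9 libraries, log2 levels of Slc12a5 and Slc12a2 had a Pearson r of -0.852, and of -0.655 over the 8 libraries without WT library 1. Libraries share genotype and composition, so this is a description. Slc12a4 and Slc12a7 had an r of 0.675. The genes whose pattern over the 9 libraries was most like that of Slc12a5 were Nrde2 (r = 0.957), Nkain1 (0.95), Lasp1 (0.947), Tnip2 (0.929) and Kif13a (0.924). Nkain1, which encodes a protein that binds the sodium pump, averaged 25.3 cpm in WT, 23.3 in Isl1Cre/+ and 22.3 in mutant libraries. Relative to its level, this is a narrower span than that of Slc12a5 (4.78, 3.21 and 2.97 cpm). Those most like Slc12a2 were Alg13 (0.983), Ero1l (0.98) and Dcaf13 (0.979), those most like Slc12a4 were Pigt (0.975), Itpr3 (0.967) and Tmem184b (0.955), and those most like Slc12a7 were Pxmp4 (0.985), Gstm2 (0.985) and Col23a1 (0.982). An r above 0.9 was shared with 12 genes for Slc12a5, 99 for Slc12a2, 35 for Slc12a4 and 363 for Slc12a7.

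Genes that act with these cotransporters were taken from 6 lists with 65 genes in all, of which 56 were tested. In mutant and in Isl1Cre/+ relative to WT, 0 of 56 met the criterion with edgeR, with DESeq2 or with limma voom, and none had an unadjusted p under 0.05 with edgeR, against 0.318% and 1.4% of all genes that met it. In mutant relative to Isl1Cre/+, 1 of 56 met it, a GABA(A) receptor subunit, against 1.67% of all genes, a share that 1 of 56 is close to. The median log2 fold change of the 56 was -0.0182, 0.0366 and -0.0211 in these 3 comparisons, close to the medians of all genes.

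WNK kinases sense chloride and, through the kinases SPAK (Stk39) and OSR1 (Oxsr1), activate NKCC1 and inhibit the exporters. All 11 genes of this list were tested, and their log2 fold changes lay between -0.177 and 0.123 in the 3 comparisons. Wnk1 was at 383 ± 12.4, 386 ± 18.3 and 396 ± 30.3 cpm in WT, Isl1Cre/+ and mutant, Stk39 at 192 ± 7.37, 195 ± 6.09 and 185 ± 7.42 cpm and Oxsr1 at 85 ± 10.5, 86.2 ± 2.23 and 84.5 ± 5.27 cpm. Cul3, a ubiquitin ligase scaffold that helps degrade WNK kinases, was the most abundant of the list per kb, at 257, 266 and 258 cpm.

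Of 10 partners and regulators of KCC2, 9 were tested, and Ckb, a creatine kinase that binds KCC2, was the most abundant per kb at 206, 201 and 196 cpm. Of the USF factors, which recognize E-boxes, Usf1 was at 29.6 ± 5.32, 28.1 ± 1.36 and 27.9 ± 1.01 cpm and Usf2 at 48.6 ± 11.4, 44.1 ± 2.72 and 44.6 ± 2.32 cpm. Rest, a repressor of neuronal genes that acts on Slc12a5, was at 8.17 ± 0.918, 7.69 ± 1.17 and 8.06 ± 0.865 cpm, and Neto2, an auxiliary subunit that binds KCC2, at 255 ± 93.2, 257 ± 35.1 and 255 ± 23.0 cpm. Egr4 had 0 to 4 counts per library and was not tested. Log2 fold changes of the 9 were negative for 9 of 9 in mutant relative to WT, between -0.13 and -0.0024, and for 6 of 9 in each of the other comparisons. Without WT library 1, in which Neto2 was at 147 cpm against 308 and 309 in the other WT libraries, Neto2 met the criterion against WT in both Isl1Cre genotypes (log2 fold change -0.28 in each, edgeR adjusted p = 0.994 in mutant and adjusted p = 0.786 in Isl1Cre/+).

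The sodium pump keeps the gradients that drive both kinds of cotransporter. The list holds 7 of its beta and regulatory subunits, all tested, and none met the criterion. Fxyd7, a small regulatory subunit, was the most abundant of them per kb, at 361, 370 and 347 cpm in WT, Isl1Cre/+ and mutant, and Atp1b1, the main beta subunit, was at 984, 970 and 944 cpm. Log2 fold changes of the 7 lay between -0.17 and 0.12 in the 3 comparisons.

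Other routes for chloride gave no calls. None of 18 chloride channels and exchangers met the criterion, with Lrrc8b, a subunit of volume-regulated anion channels, the most abundant per kb at 291, 311 and 290 cpm. Ano1, a calcium-activated chloride channel of nociceptors, was at 5.52 ± 1.04, 5.98 ± 1.28 and 6.89 ± 3.77 cpm. Slc4a3, a chloride-bicarbonate exchanger, was at 25.4 ± 4.73, 22.6 ± 2.68 and 21.4 ± 2.48 cpm in WT, Isl1Cre/+ and mutant. It met the criterion against WT once WT library 3 was left out, with log2 fold changes of -0.39 in mutant (edgeR, adjusted p = 0.999) and -0.29 in Isl1Cre/+ (adjusted p = 0.952).

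The receptors through which chloride flows were the only one of the 6 lists with a call. Of 15 GABA(A) and glycine receptor subunits, 10 were tested, and 1 was higher in mutant than in Isl1Cre/+ by the criterion, which 1.41% of all genes met in this direction. Gabra4, the alpha 4 subunit, was at 3.33, 4.40 and 4.70 cpm in WT, 3.52, 3.84 and 3.86 cpm in Isl1Cre/+ and 4.60, 4.99 and 5.02 cpm in mutant libraries. The log2 fold change between the Isl1Cre genotypes was 0.38 (SE 0.136, edgeR, adjusted p = 1.0), and all 3 mutant libraries lay above all 3 Isl1Cre/+ libraries, as was the case for 3.38% of all genes. The call was lost with DESeq2's Wald test, with the replicate number as a block and when any 1 of mutant library 2, mutant library 3, Isl1Cre/+ library 1 and Isl1Cre/+ library 2 was left out, since the unadjusted p then rose above 0.05. Both Isl1Cre genotypes overlapped WT. In the same comparison the markers of erythroid cells summed to 342 to 976 cpm in Isl1Cre/+ and 1200 to 3940 cpm in mutant libraries, and those of skeletal muscle to 61 to 158 and 131 to 2040 cpm. The interneuron sum was 1.35 to 2.1 and 2.69 to 5.14 cpm, with 5 of 10 markers higher in every mutant library, as were 4 of 6 sympathetic markers. The part of these cells in this call was not tested.

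The most abundant of the 15 per kb was Glrb, the beta subunit of glycine receptors, at 65.8 ± 11.8, 65.8 ± 6.45 and 69.9 ± 2.6 cpm in WT, Isl1Cre/+ and mutant. Gabra2, the alpha 2 subunit, was at 34.6, 32.8 and 34.2 cpm, and neither met the criterion in any comparison. Gabra6, a subunit of cerebellar granule cells, had 0 counts in all 9 libraries, and Gabrd, Gabre, Glra1 and Glra3 had too few counts to be tested.

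**Figure D5:**
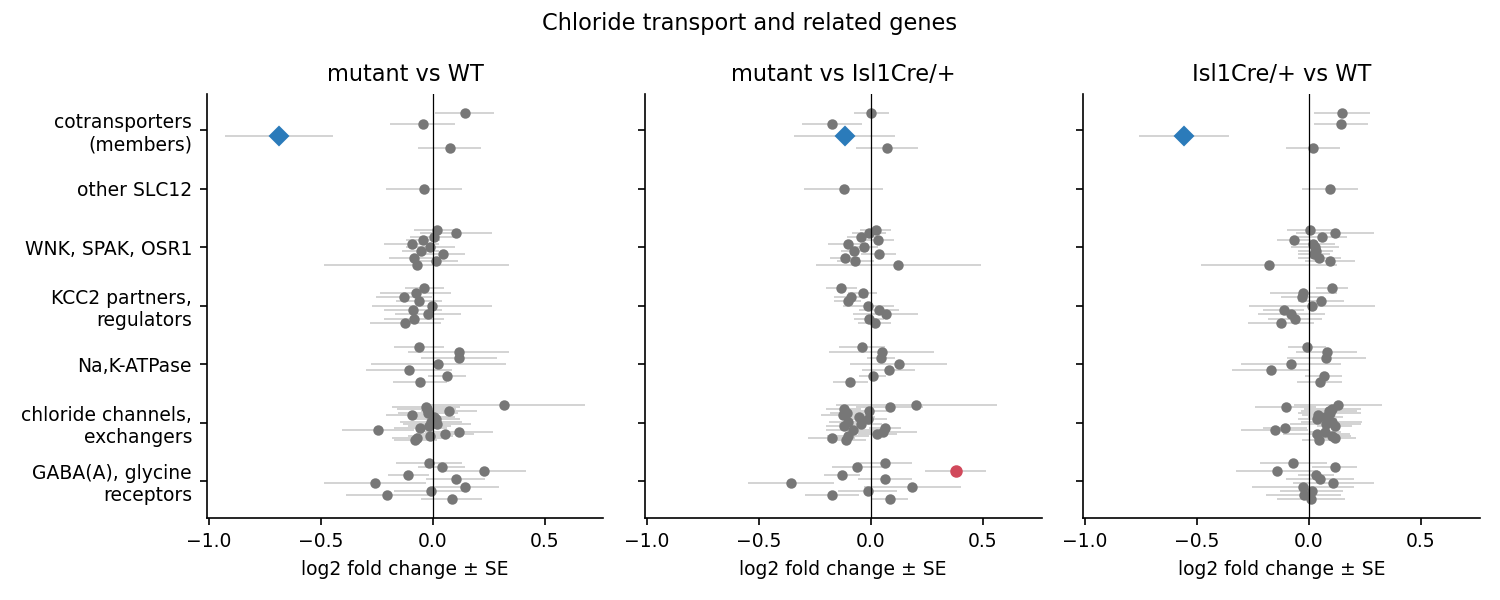
Log2 fold change ± SE (horizontal axes, edgeR) of the tested genes of the 4 members and of 6 related lists in the 3 comparisons, with blue diamonds for Slc12a5, a red point for the list gene that met the criterion and grey points for the others. Slc12a5 lies at -0.69 and -0.56 in the 2 comparisons with WT, by which it was chosen, the listed genes span -0.256 to 0.32 and -0.177 to 0.129 there, and Gabra4 is the red point.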

How the data were processed

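RNA of E18.5 DRG was measured in 9 libraries of 3 genotypes, grouped by their labels. The values the authors deposited are raw counts per gene: poly(A) RNA was purified, libraries with unique molecular identifiers were sequenced as single-end reads, duplicates were removed by these identifiers, and reads were aligned to mm10 with STAR 2.7.10 and counted with HTSeq 0.6 (versions from the submitters' processing notes). The strand setting and the annotation are not given in the sources used here. Further columns with the limma results of the authors (log fold change, mean expression, statistic, p-values and log odds for 3 comparisons) were not used.

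A gene was tested when any library held 100 counts of it or more, close to the study's filter, which left 13200 genes. These were fitted in R 4.3.3 with edgeR 4.0.16 and TMM, 2 genotypes per fit. Its quasi-likelihood test was two-sided, and p-values were adjusted after Benjamini and Hochberg across the 13200 genes. The criterion was a change of 1.2-fold or more together with an unadjusted p under 0.05. Levels are cpm on TMM-normalized library sizes, and lengths are merged exons of GENCODE M21, to which 55154 identifiers were matched. Correlations used log2(cpm + 0.5) over the genes tested. Intervals and limits for counts cover counting error only. The fit was tested on simulated data.

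The members, lists and tests were chosen with earlier results of these data known, and the comparisons with WT were used in choosing the members. Named were the members, the other SLC12 genes, list genes that met the criterion, the most abundant gene of each list, marker genes at 0, and the genes most correlated with each member (5 for Slc12a5, 3 for the others). Some genes of the lists are not reported here and are in none of their counts. Other genes of the lists were named after their values were seen, as examples. Results were recomputed with size factors of DESeq2 1.42.0 in place of TMM, without the filter, with DESeq2's Wald test, with voom of limma 3.58.1, with all genotypes in 1 fit, with replicate number as a block and without each single library, and the ratio also from summed counts.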

Additional observations from a re-analysis of the deposited data

How the results depend on the processing

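Under the alternatives, Slc12a5 spanned -0.88 to -0.50 (log2) in mutant and -0.67 to -0.39 in Isl1Cre/+ relative to WT, both nearest to 0 without WT library 1, a direction set by the choice of the gene. In mutant relative to Isl1Cre/+ it spanned -0.3073 (without mutant library 3) to -4.2e-06 (without mutant library 2), which is no direction. The near-zero difference of Slc12a2 between mutant and Isl1Cre/+ changed sign without the filter (-0.0153), with the replicate block (-0.00029) and with limma voom (-0.00071), and spanned -0.0662 to 0.0606 when libraries were left out. That of Slc12a7 spanned -0.0558 to 0.1829, and that of the log2 ratio of Slc12a5 to Slc12a2 -0.3556 to 0.0628, positive only without mutant library 2. Counts of genes that met the criterion were less stable. Without the filter they went from 42 to 408 in mutant relative to WT, of which 51.5% were higher in place of 19.0%, from 221 to 1028 in mutant relative to Isl1Cre/+ and from 185 to 845 in Isl1Cre/+ relative to WT, with 13200 genes tested before. With libraries left out they ranged from 40 to 132 (132 without WT library 1, 120 without mutant library 1), from 167 to 407 (407 without mutant library 1) and from 102 to 340 (340 without WT library 1, 102 without Isl1Cre/+ library 3). Of the related lists, the 1 gene called in mutant relative to Isl1Cre/+ (Gabra4) became 0 with the block or with DESeq2's Wald test, 2 without the filter and 0 to 2 with libraries left out. Without mutant library 3 the 2 were Gabrb2, a receptor subunit that was lower (-0.53), and Ttyh2 of the chloride channel list (-0.28), and without Isl1Cre/+ library 3 Gabrg1 (0.47) joined Gabra4. The 0 relative to WT became 1 without the filter in either comparison, with ranges of 0 to 1 in both when libraries were left out. Replicate numbers did not pair libraries: correlations of the deviations of same-numbered libraries ran from -0.569 to 0.385. With the number as a block, Slc12a5 was at -0.69 and -0.55 relative to WT and at -0.12 between the Isl1Cre genotypes, and Gabra4 lost its call. The cause of these shifts was not tested. Depth limits Slc12a5, at 66 to 159 counts per library, and the interneuron markers, which were all under 100 counts.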

Other observations

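Glra1, the glycine receptor subunit of mature spinal neurons, lay below the minimum for testing. It had 20, 19 and 22 counts in WT libraries, 11, 16 and 11 in Isl1Cre/+ libraries and 5, 11 and 12 in mutant libraries, so all WT libraries were above all others, as for Slc12a5. Of all tested genes, which do not include Glra1, 1.74% were lower than in WT in every mutant library and 2.66% in every Isl1Cre/+ library. Without the filter, edgeR gave a log2 fold change of -0.97 in mutant (unadjusted p = 0.0217, adjusted p = 0.997) and -0.69 in Isl1Cre/+ (unadjusted p = 0.0445, adjusted p = 0.939) relative to WT. Slc12a8, a distant relative of the cotransporters, had 35, 26 and 23 counts in WT libraries, 20, 25 and 17 in Isl1Cre/+ libraries and 33, 42 and 20 in mutant libraries, and without the filter its log2 fold change in mutant relative to Isl1Cre/+ was 0.73 (edgeR, adjusted p = 0.867), with overlapping libraries. Both genes were singled out after their values were seen.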
